A study of Mus musculus with 10 samples.

Results

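The genes described here are 10 components of insulin signalling and insulin-driven glucose handling, chosen by name: Insr, Irs1, Irs2, Pik3r1, Akt2, Slc2a4, Tbc1d4, Hk2, Pck1 and Foxo1. All 10 were present among the 23930 amplicons of the count table, and all 10 passed the filter on low counts that left 12719 genes to test. Transcripts were counted in epididymal white fat, a visceral depot, of 10 male C57BL/6 mice aged 18 weeks. All 10 animals, controls included, had received a diet high in sucrose and fat for 8 weeks, so no lean or chow-fed state enters any comparison. Of these mice, 5 carried both working copies of Srgn (Srgn+/+) and 5 carried none (Srgn-/-). Srgn encodes serglycin, a proteoglycan of the secretory granules of immune cells. Each library stands for 1 animal, and libraries are named by genotype and a running number that pairs no animals. The labels do not say whether the animals were littermates.

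Insulin binds its receptor on the surface of a fat cell, and the receptor kinase then phosphorylates the insulin receptor substrate proteins. These recruit phosphoinositide 3-kinase, whose lipid product activates the kinase Akt. Akt phosphorylates the Rab GTPase-activating protein encoded by Tbc1d4, which lets vesicles that carry the glucose transporter GLUT4 reach the plasma membrane, and it also keeps the transcription factor Foxo1 out of the nucleus. In white fat this pathway drives glucose uptake and triglyceride storage and restrains lipolysis, and its weakening is a feature of obesity. Most of its control acts on proteins, which transcript counts do not show.

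Total reads per library ran from 7824764 to 10757779. Values are read counts scaled to library size (CPM, with trimmed-mean factors), with SD over 5 libraries. Each gene was read at 1 amplicon of its own efficiency, so the size of a level, or of a ratio of genes, has no meaning between genes, and only its differences between libraries are read. The Srgn amplicon had 776 to 1301 reads in the Srgn+/+ libraries and 0 to 12 in the Srgn-/- libraries, so the labels held in all 10. All 12 adipocyte markers were detected in every library. Markers of the epididymis and of sperm summed to 867, 4627 and 967 CPM in Srgn+/+ 4, Srgn-/- 3 and Srgn-/- 5, and to 1.24 to 105.6 CPM in the other libraries. Skeletal muscle also expresses Slc2a4 and Hk2. The defining muscle gene Ckm had at most 1 read in a library, and the 7 muscle markers summed to 14.1 to 56.9 CPM.

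Promoter stretches are shown, chosen after the values were seen, for Pck1 and Irs1, whose levels spread widely over the animals, and for Hk2, whose levels stayed close together. Each is the 250 bases before the annotated start, 5′ to 3′ on the gene's strand, from RefSeq on assembly GRCm38.p6, which is another build than the mm9 named in the submitters' processing notes. Of the 10 genes, 8 had a promoter entry, with 12 start sites between them. Capitals mark matches on either strand to TGACG (the cyclic AMP response half-site), CACGTG (E-box), GGGCGG (GC box) or CCAAT.
Pck1 (chr2:173152823-173153072, + strand): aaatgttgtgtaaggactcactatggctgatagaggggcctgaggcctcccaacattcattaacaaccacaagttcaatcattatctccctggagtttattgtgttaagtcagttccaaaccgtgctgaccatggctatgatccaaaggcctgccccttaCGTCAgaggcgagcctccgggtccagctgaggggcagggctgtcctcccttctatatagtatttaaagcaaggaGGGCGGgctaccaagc
Irs1 (chr1:82291440-82291689, - strand): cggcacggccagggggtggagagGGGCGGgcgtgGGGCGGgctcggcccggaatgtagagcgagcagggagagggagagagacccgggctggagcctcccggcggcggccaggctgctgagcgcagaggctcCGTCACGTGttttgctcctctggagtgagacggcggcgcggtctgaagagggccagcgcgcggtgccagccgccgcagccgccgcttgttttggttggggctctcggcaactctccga
Hk2 (chr6:82774455-82774704, - strand): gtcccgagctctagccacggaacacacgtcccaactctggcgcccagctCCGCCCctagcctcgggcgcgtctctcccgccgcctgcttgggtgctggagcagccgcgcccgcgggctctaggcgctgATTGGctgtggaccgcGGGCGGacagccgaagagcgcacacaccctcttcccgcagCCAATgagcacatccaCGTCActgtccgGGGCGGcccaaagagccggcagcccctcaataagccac
In the Pck1 stretch the half-site lies 90 to 86 bases before the start, and 1 GC box lies 16 to 11 bases before it. The Irs1 stretch holds a half-site that overlaps an E-box, from 118 to 110 bases before the start, and 2 GC boxes. The Hk2 stretch holds 1 half-site, 3 GC boxes and 2 CCAAT matches. Each of these 3 genes thus had the half-site, which 17.8% of 32851 mouse promoter stretches of this length contain. Among the genes not shown, Irs2, Tbc1d4 and Foxo1 lacked it, and Pik3r1 and Akt2 had it at only some of their start sites. As the 3 genes were picked, their matches are not read as an excess. The shares were 6.02% for the E-box, 32.7% for the GC box and 33.8% for CCAAT. The letters TATAAA (12.4%) and the Foxo site TGTTTAC (3.17%) were not found in these 3 stretches. Base composition differed, with 50.8% G or C in Pck1, 72.4% in Irs1 and 69.6% in Hk2, against a median of 52.4% over all stretches. A match describes letters and not a bound factor.

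The comparison of genotypes asks whether loss of serglycin altered transcripts of this pathway in diet-fed visceral fat. None of the 10 genes passed the test in either direction, with Irs1 nearest (edgeR adjusted p = 0.562 over all genes tested). Over all genes 1 passed, Srgn itself, which is 0.00786% of those tested. At an unadjusted p under 0.05 the count was again 0 of 10, where 12.8% of all tested genes lay below that value, 6.77% higher and 6.06% lower in Srgn-/- fat. The CPM ranges of the genotypes overlapped for all 10, while they did not overlap for 2.78% of tested genes. Of the 10, 4 had a higher and 6 a lower estimate in Srgn-/- fat, with a median log2 fold change of -0.027 against -0.0014 over all tested genes. These signs are weak. Apart from Irs1 and Hk2, each gene's sign turned in at least 1 of 17 alternatives (other scalings, tests or sets of libraries), in 6 for Insr, 5 for Slc2a4 and 4 for Tbc1d4. DESeq2 and limma-voom also called 0 of the 10. Over all tested genes, DESeq2 called 118 higher and 108 lower, and limma-voom 2 and 8.

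**Figure D1:**
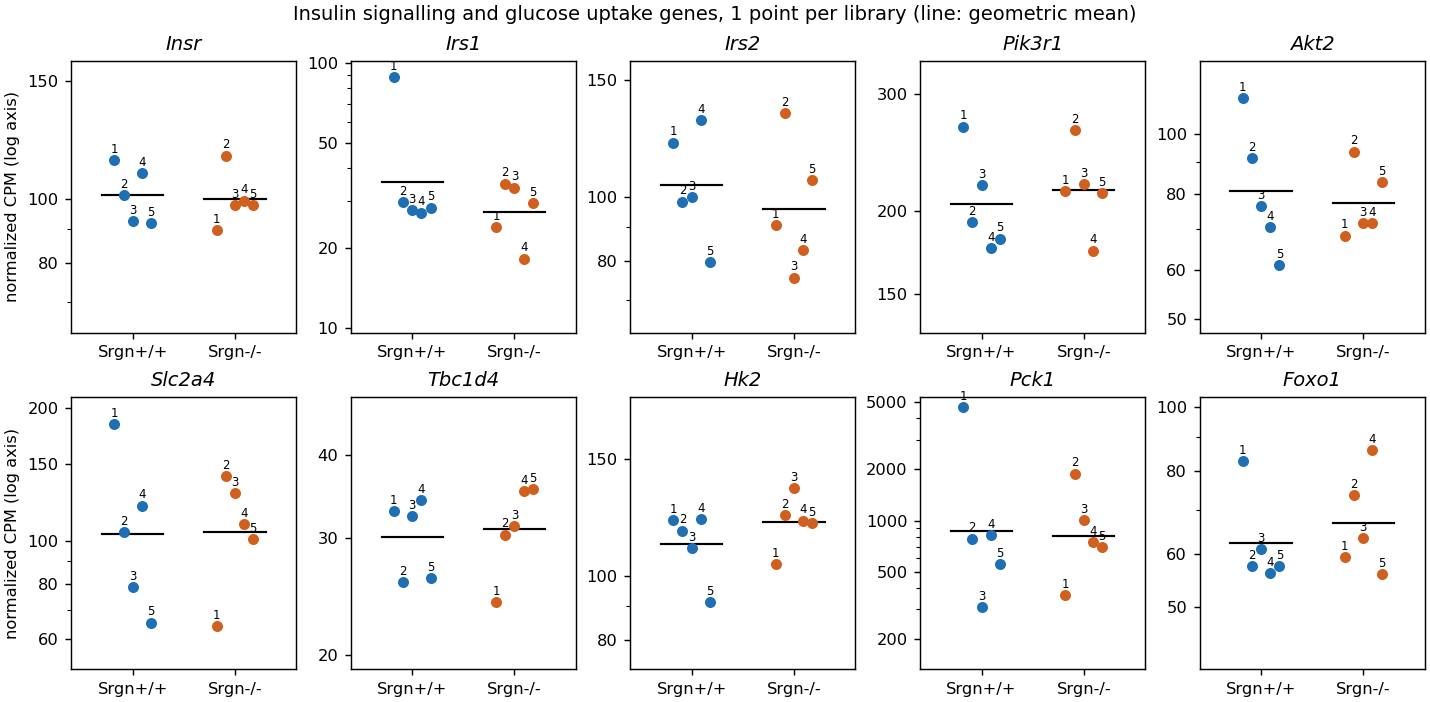
Normalized CPM (log axis) of the 10 genes in each library, grouped by genotype; points are single libraries labelled with their number and lines are geometric means of 5. The ranges of the genotypes overlap in every panel, and Srgn+/+ 1 stands above all other libraries for Irs1, Pik3r1, Akt2, Slc2a4 and Pck1.

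Insr encodes the insulin receptor. Its level was 114, 101.3, 92.5, 109.2 and 91.8 CPM in Srgn+/+ 1 to 5 and 89.6, 116.0, 97.6, 99.3 and 97.7 CPM in Srgn-/- 1 to 5. The highest and the lowest library were both Srgn-/-, and the whole span was 1.29-fold. Means were 101.8 ± 9.90 and 100.04 ± 9.67 CPM (SD, n = 5), and the log2 difference was -0.03 with an SE of 0.095 (edgeR adjusted p = 0.936). The 95% interval of the ratio of Srgn-/- to Srgn+/+ ran from 0.851 to 1.13, the narrowest of the 10. The within-genotype SD of Insr on the log2 scale was 0.14, smaller than in most of the 2830 tested genes of like level (within 2-fold in mean CPM), of which 29.5% had a smaller SD.

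Irs1 and Irs2 encode the main receptor substrates of fat and liver. Irs1 stood at 88.2, 29.8, 27.8, 27.2 and 28.4 CPM in Srgn+/+ 1 to 5 and at 23.9, 34.99, 33.8, 18.2 and 29.6 CPM in Srgn-/- 1 to 5. Srgn+/+ 1 was far above the rest, while Srgn+/+ 2 to 5 stayed within 27.2 to 29.8 CPM, inside the Srgn-/- range. Means were 40.3 ± 26.8 and 28.1 ± 7.02 CPM (log2 -0.52, SE 0.354, edgeR adjusted p = 0.562), and the interval of the ratio, 0.405 to 1.199, reached far below 1. Without Srgn+/+ 1 the log2 fold change was -0.010. Irs2, which Foxo1 is known to induce, ranged from 79.8 to 130.5 CPM in Srgn+/+ and from 75.6 to 133.6 CPM in Srgn-/- fat. Its means were 105.8 ± 19.99 and 97.8 ± 23.0 CPM (log2 -0.11, SE 0.168, edgeR adjusted p = 0.805). The highest Irs2 values were in Srgn-/- 2, Srgn+/+ 4 and Srgn+/+ 1, so Irs2 did not repeat the single high library of Irs1.

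Pik3r1 encodes the p85 alpha regulatory subunit of phosphoinositide 3-kinase. It ranged from 175.6 to 267 CPM in Srgn+/+ and from 174 to 264 CPM in Srgn-/- fat, nearly the same span (log2 0.07, SE 0.136, edgeR adjusted p = 0.868). Akt2, the Akt isoform most tied to insulin-driven glucose uptake, had 114, 91.4, 76.3, 70.6 and 61.2 CPM in Srgn+/+ 1 to 5 and 68.3, 93.6, 71.6, 71.7 and 83.6 CPM in Srgn-/- 1 to 5. Both the highest and the lowest Akt2 value came from Srgn+/+ animals, and the Srgn-/- libraries lay between them. The log2 fold change was -0.09 (SE 0.159, edgeR adjusted p = 0.841), and 0.053 without Srgn+/+ 1.

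Slc2a4 encodes GLUT4, the transporter that insulin moves to the cell surface. It had 184, 104.8, 78.8, 120.5 and 65.4 CPM in Srgn+/+ 1 to 5 and 64.2, 140.5, 128.6, 109.2 and 101.0 CPM in Srgn-/- 1 to 5. The span was 2.87-fold over the 10 libraries, with low values in both genotypes (Srgn+/+ 5, Srgn-/- 1). Means were 110.8 ± 46.5 and 108.7 ± 29.3 CPM, with a log2 difference of -0.03 and an SE of 0.283 (edgeR adjusted p = 0.976; 0.23 without Srgn+/+ 1), with an interval of the ratio from 0.636 to 1.51. The within-genotype SD was 0.51 on the log2 scale, and 95.4% of 2671 genes of like level had a smaller one. Tbc1d4, the Akt substrate that holds GLUT4 vesicles inside the cell, varied less, from 25.8 to 34.2 CPM in Srgn+/+ and from 24.0 to 35.5 CPM in Srgn-/- fat (log2 0.05, SE 0.131, edgeR adjusted p = 0.907). Its lowest values were in Srgn-/- 1, Srgn+/+ 2 and Srgn+/+ 5.

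Hk2 encodes hexokinase 2, which traps glucose as glucose 6-phosphate. It had 121.4, 117, 110.0, 121.7 and 91.4 CPM in Srgn+/+ 1 to 5 and 104, 123, 135.5, 121.1 and 120.02 CPM in Srgn-/- 1 to 5. Srgn+/+ 5 was the lowest and Srgn-/- 3 the highest, and the rest lay within 104 to 123 CPM. Means were 112 ± 12.6 and 120.8 ± 11.2 CPM (log2 0.10, SE 0.101, edgeR adjusted p = 0.686), with an interval of the ratio from 0.924 to 1.25. The within-genotype SD of Hk2 was 0.15 on the log2 scale, and 39.0% of 2551 genes of like level had a smaller one.

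Pck1, whose transcription insulin represses, encodes cytosolic phosphoenolpyruvate carboxykinase, an enzyme of the path that in fat supplies the glycerol backbone of triglyceride. It varied most, with 4633, 783, 309 and 823 CPM in Srgn+/+ 1 to 4 and 555 CPM in Srgn+/+ 5. In Srgn-/- 1 to 5 it had 366, 1893, 1009, 744 and 698 CPM. The span was 14.97-fold, led by Srgn+/+ 1 and then Srgn-/- 2. Means were 1421 ± 1807 and 942 ± 579 CPM, with a log2 difference of -0.59 and an SE of 0.716 (edgeR adjusted p = 0.756). Leaving out Srgn+/+ 1 turned the direction, to 0.61, also not past the threshold (edgeR adjusted p = 0.513). The within-genotype SD of 1.197 on the log2 scale exceeded that of 98.9% of 183 genes of like level. Foxo1 encodes the transcription factor that Akt excludes from the nucleus. Its libraries lay between 56.2 and 82.8 CPM in Srgn+/+ and between 56.0 and 86.0 CPM in Srgn-/- fat (log2 0.10, SE 0.143, edgeR adjusted p = 0.793; 0.22 without Srgn+/+ 1). Its highest values were in Srgn-/- 4 and Srgn+/+ 1.

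**Figure D2:**
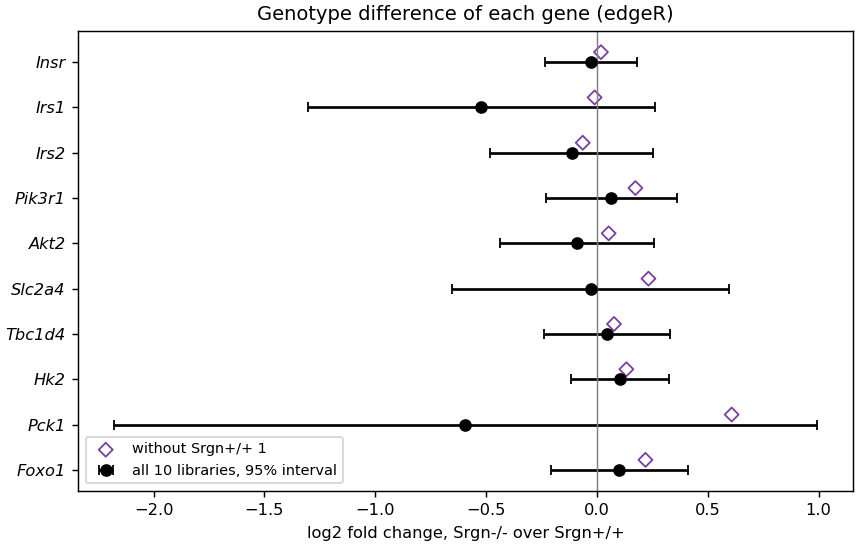
Log2 fold change of Srgn-/- over Srgn+/+ from edgeR for each gene, with 95% intervals (dots and bars), and the estimate without Srgn+/+ 1 (diamonds). Every interval spans 0; the intervals are narrow for Insr and Hk2 and wide for Irs1, Slc2a4 and Pck1, whose estimates move most without that library, Pck1 from -0.59 to 0.61.

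Each gene was next set against a relative as a ratio within a library, which does not depend on how libraries are scaled. None of 9 ratios passed an exact two-sided permutation test adjusted over the 9. The nearest was Hk2 to Hk1, the hexokinase found in most tissues. Its log2 ratio was 2.09, 2.14, 2.09, 1.71 and 1.83 in Srgn+/+ 1 to 5 and 2.04, 2.27, 2.52, 2.63 and 2.28 in Srgn-/- 1 to 5. Apart from Srgn-/- 1, every Srgn-/- library lay above every Srgn+/+ library. The difference was 0.38 (exact permutation p = 0.0317, adjusted p = 0.286 over the 9 ratios). Slc2a4 to Slc2a1, the insulin-independent transporter GLUT1, had log2 ratios of 1.71 ± 0.70 and 2.03 ± 0.49 (exact permutation p = 0.429). Irs1 to Irs2 was -0.45 in Srgn+/+ 1 and between -2.26 and -1.16 in the other 9 libraries (exact permutation p = 0.524). For Insr to the related receptor Igf1r the log2 ratio was 0.19 in Srgn-/- 3 and 1.197 to 1.61 elsewhere, with 1.59 and 1.28 in Srgn+/+ 4 and Srgn-/- 5, the other libraries rich in epididymis RNA (exact permutation p = 0.516). Exact permutation p was 0.675 for Pik3r1 to Pik3r2, 0.762 for Akt2 to Akt1, 0.817 for Tbc1d4 to Tbc1d1, 0.944 for Pck1 to Pck2 and 0.373 for Foxo1 to Foxo3. With 5 against 5 libraries such a test can reach 0.00794.

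The rest of the pathway was read from 8 lists, which share a few genes, of receptor adaptors, inhibitors, kinases, transporter traffic, glucose use, glyceroneogenesis, transcription factors and Foxo targets. Of 121 genes on them, 115 were measured and 113 tested, and 0 passed in either direction by edgeR, DESeq2 or limma-voom. Over all tested genes, DESeq2 called 118 higher and 108 lower, limma-voom 2 and 8, and edgeR only Srgn. Estimates were higher in Srgn-/- fat for 57 and lower for 56 (median log2 0.0011). At an unadjusted p under 0.05 there were 15 (13.3%), 4 higher and 11 lower, against 12.8% of all tested genes. That split depended on the scaling, with 8 higher and 8 lower under upper-quartile factors and 9 higher and 7 lower in limma-trend. The CPM ranges of the genotypes did not overlap for 2 of 113, against 2.78% of tested genes. For Foxo4 the lowest Srgn+/+ and highest Srgn-/- library nearly met, at 44.46 and 44.45 CPM, and for Hk1 at 25.6 and 25.5 CPM. Without the 3 libraries rich in epididymis RNA, the unadjusted count in the pathway was 0 higher and 1 lower, in a fit with fewer animals, where 4.17% of all genes tested lay below that p.

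None of the following genes passed over all genes, and they are from the 3 with the smallest p in each list. Among adaptors, Crk had 111 ± 5.33 and 89.1 ± 12.0 CPM (log2 -0.32) and Shc1, which links the receptor to the Ras pathway, 136 ± 5.43 and 119.9 ± 6.65 CPM (log2 -0.19). Gab1, a docking protein, had a log2 fold change of 0.30. Among brakes on the pathway, Inppl1, which encodes the lipid phosphatase SHIP2, had 103 ± 8.62 and 85.0 ± 6.91 CPM (log2 -0.28). Socs3, a cytokine-induced inhibitor, was low at 2.39 ± 0.73 and 1.43 ± 0.33 CPM (log2 -0.73).

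Among kinases, log2 fold changes were -0.69 for Pik3cd, the catalytic subunit typical of leukocytes (32.8 ± 12.3 and 20.3 ± 7.49 CPM), and 0.18 for Gsk3b. In transporter traffic, Exoc7, an exocyst subunit, had 47.5 ± 2.26 and 58.1 ± 6.57 CPM (log2 0.29). Slc2a1 had 32.0 ± 4.09 and 25.8 ± 1.94 CPM (log2 -0.31), and Stxbp3, a syntaxin-binding protein of vesicle fusion, 81.1 ± 5.36 and 63.5 ± 12.5 CPM (log2 -0.35). In glucose use, Pfkfb3, which makes the activator of phosphofructokinase, had 622 ± 154 and 878 ± 179 CPM (log2 0.50), while Hk1 (log2 -0.27) and G6pdx, the entry to the pentose phosphate pathway (log2 -0.28), had lower values. In the glyceroneogenesis list, the malate dehydrogenases Mdh1 (307 ± 23.7 and 383 ± 45.4 CPM, log2 0.32) and Mdh2 (log2 0.18) and the glycerol kinase Gk (log2 0.54) had higher values.

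Foxo4, a relative of Foxo1, had the smallest p of the 113, at 51.4 ± 6.45 and 39.8 ± 3.34 CPM (log2 -0.37, SE 0.104, edgeR adjusted p = 0.222). The other factors nearest the threshold were Nr1h3 (log2 -0.18) and Ppargc1a (log2 0.37). Of the Foxo targets, Cited2 had 127 ± 35.6 and 73.8 ± 28.2 CPM (log2 -0.78) and Sesn3 a log2 fold change of -0.35. Pdk4, which shuts glucose carbon out of the mitochondrial oxidation path, had 140 ± 62.6 and 80.8 ± 61.5 CPM (log2 -0.79), with 188 CPM in Srgn-/- 4. Over the genes named here from the lists, the adjusted p ran from 0.222 for Foxo4 to 0.586 for Ppargc1a in edgeR.

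**Figure D3:**
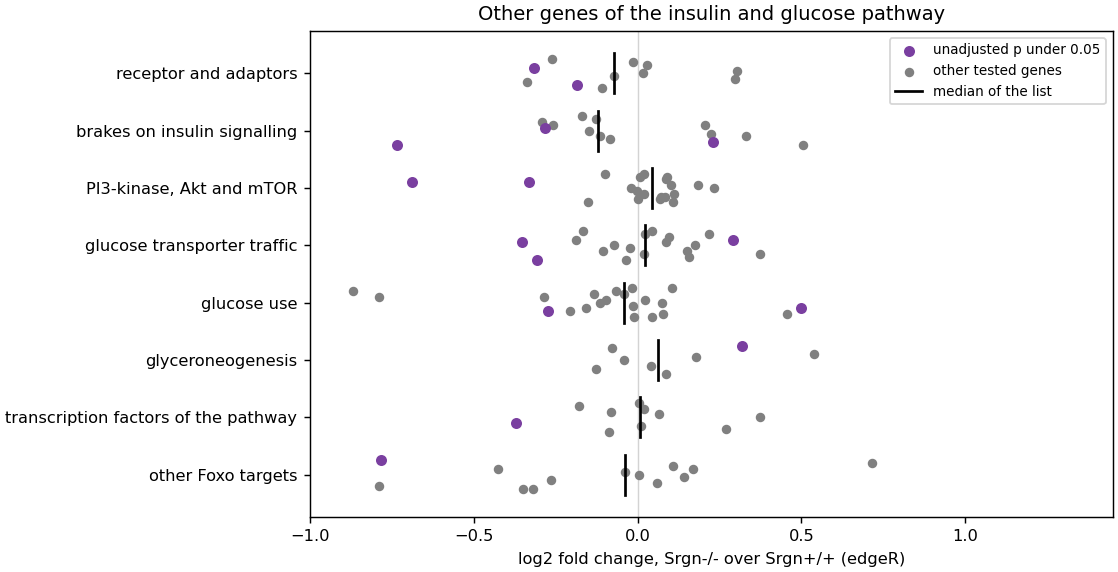
Log2 fold change of Srgn-/- over Srgn+/+ for the tested genes of 8 pathway lists; each point is a gene, coloured points have an unadjusted p under 0.05, and bars are list medians. Points lie on both sides of 0 in every list, and list medians run from -0.12 to 0.06.

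For all 10 genes the within-genotype SD on the log2 scale exceeded the difference between genotypes, and several of them varied over the animals together. All 45 pairs had a positive Pearson r of log2 CPM over the 10 libraries, with a median of 0.501, and 5 pairs passed after adjustment over the 45 (two-sided permutation test). The share of positive or passing pairs among other genes was not tested, so these counts are not shown to be particular to the 10. The highest r with genes outside the 10 exceeded any of the 45 for some, such as Slc2a4 with Usp35 (0.972) and Pck1 with Fdft1 (0.983). GLUT4 and the enzyme of glyceroneogenesis were the closest pair. Slc2a4 and Pck1 had r = 0.899 and Spearman's rho = 0.952 (permutation p = 0.00017 and 0.00018, adjusted p = 0.00765 and 0.00810), and r = 0.816 without the 2 libraries farthest from the median of Slc2a4. Insr followed both. Its r was 0.887 with Slc2a4 (rho 0.855, permutation p = 0.00088 and 0.00287, adjusted p = 0.0132 and 0.0430) and 0.859 with Pck1 (rho 0.830, permutation p = 0.00062 and 0.00482, adjusted p = 0.0132 and 0.0434). Without the 2 farthest libraries these were 0.827 and 0.726. The 3 pairs among Insr, Slc2a4 and Pck1 passed whichever library was left out. With each genotype's mean removed r was 0.902, 0.894 and 0.859 in the same order. Within a single genotype there were only 5 libraries, too few for a value.

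The other pairs that passed in Pearson's form were less firm. By rank alone, Hk2 and Pck1 also passed (rho = 0.830, permutation p = 0.00447, adjusted p = 0.0434), while their r was 0.501 (permutation p = 0.141, adjusted p = 0.275). Slc2a4 and Hk2 had r = 0.800 and rho = 0.891 (permutation p = 0.00406 and 0.00119, adjusted p = 0.0365 and 0.0268), and r rose to 0.906 without Srgn+/+ 1 and Srgn-/- 1, but the pair passed in only 4 of the 10 fits that left out 1 library. It was lost without Srgn+/+ 2, 3 or 5 and Srgn-/- 1, 2 or 5. Irs1 and Pik3r1 had r = 0.733 and rho = 0.758 (permutation p = 0.00355 and 0.0152, adjusted p = 0.0365 and 0.114). It did not pass without Srgn+/+ 1, 2 or 5 or Srgn-/- 2, 4 or 5. Without Srgn+/+ 1 and Srgn-/- 4, the libraries farthest from the median of Irs1, r fell to 0.523 (permutation p = 0.179), over a narrower range. Tbc1d4 followed the rest least, with r from 0.0367 against Pik3r1 and 0.111 against Irs1 up to 0.557 against Slc2a4 and 0.600 against Hk2. Without the 3 libraries rich in epididymis RNA, r was 0.926 for Slc2a4 and Pck1, 0.952 for Insr and Slc2a4 and 0.924 for Insr and Pck1, while 0 pairs passed among the 7 libraries left.

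**Figure D4:**
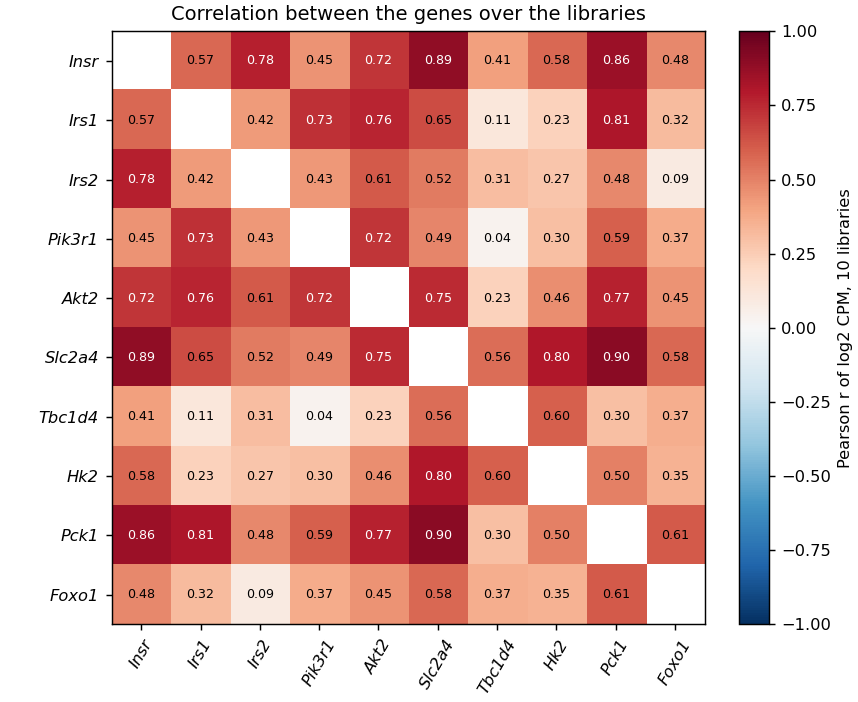
Pearson r of log2 CPM over the 10 libraries for each pair of genes, with the value in each cell. All cells are positive; Insr, Slc2a4 and Pck1 hold the 3 highest values, with 0.90 for Slc2a4 with Pck1, and the Tbc1d4 row holds mostly low ones.

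Marker genes of adipocytes, and of mesothelium and progenitors, moved with some of these genes, and macrophage markers moved against some of them. In bulk tissue, fewer cells of a type and less RNA per cell cannot be told apart. Each cell type was summarised per library by averaging, over its tested markers, log2 CPM less that gene's mean over the 10 libraries (the list mean). Genes were not scaled by their spread, so those that vary most weigh most. In the adipocyte list Adrb3, Cfd and Retn spanned 8.52-, 8.14- and 3.97-fold over the libraries. Adipoq, Plin1 and Lipe spanned 1.89-, 1.76- and 1.61-fold. Relations with a list that leaves out the most variable markers were not tested. Adipocyte markers (12 of 12 tested, among them Adipoq, Plin1 and Lipe) had list means of 0.58, 0.046, -0.26, -0.031 and -0.38 in Srgn+/+ 1 to 5 and -0.34, 0.28, 0.17, -0.049 and -0.012 in Srgn-/- 1 to 5. Macrophage markers (11 of 12 tested, among them Lyz2, Cd68 and Trem2) had -1.05, 0.23, 0.54, 0.31 and 1.151 in Srgn+/+ and 0.44, -0.85, -0.65, 0.18 and -0.30 in Srgn-/-. So Srgn+/+ 1 was highest for adipocyte and lowest for macrophage markers, and Srgn+/+ 5 was the reverse.

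Slc2a4 had r = 0.968 with the adipocyte list (rho 0.891, permutation p = 4e-05 and 0.00091, adjusted p = 0.00245 and 0.0322 over 70 relations of 10 genes with 7 marker lists). Pck1 had r = 0.943 with it (rho 0.891, permutation p = 7e-05 and 0.00104, adjusted p = 0.00245 and 0.0322). Both passed whichever library was left out, and r was 0.942 and 0.960 without Srgn+/+ 1 and Srgn+/+ 5. Insr (r = 0.845, rho 0.794, permutation p = 0.00179 and 0.00899, adjusted p = 0.0251 and 0.0613) and Akt2 (r = 0.844, rho 0.806, permutation p = 0.00248 and 0.00745, adjusted p = 0.0289 and 0.0601) passed in Pearson's form only. Without those outer libraries, which narrows the range of the list, r for Akt2 fell to 0.567 (permutation p = 0.148). Akt2 did not pass without Srgn+/+ 1, Srgn-/- 1 or Srgn-/- 2, and Insr not without Srgn+/+ 1, Srgn+/+ 3, Srgn-/- 1 or Srgn-/- 2.

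Macrophage markers ran the other way. Their r was -0.872 with Slc2a4 (rho -0.855, permutation p = 0.00127 and 0.00261, adjusted p = 0.0222 and 0.0365), -0.813 with Pck1 (rho -0.842, permutation p = 0.00302 and 0.00343, adjusted p = 0.0302 and 0.0400) and -0.789 with Hk2 (rho -0.782, permutation p = 0.00475 and 0.0105, adjusted p = 0.0332 and 0.0613). Without Srgn+/+ 1 and Srgn-/- 2, the libraries with the fewest macrophage transcripts, r was -0.753 for Slc2a4 (permutation p = 0.0254), -0.578 for Pck1 (permutation p = 0.134) and -0.909 for Hk2 (permutation p = 0.0033). The relation with Pck1 was thus weaker without those libraries, whose removal also narrows the range of the list. None of the 3 passed the adjusted threshold without Srgn+/+ 1 or without Srgn-/- 2. The Pck1 relation was also lost without Srgn+/+ 3 or Srgn-/- 1, and that of Hk2 also without Srgn+/+ 3 or 5 or Srgn-/- 1, 3 or 5. All 10 genes had a negative r with the macrophage list, from -0.872 to -0.418. With each genotype's mean removed, the passing set changed. Hk2 no longer passed (r = -0.758, adjusted p = 0.0983, permutation test), Slc2a4 and Pck1 still did (r = -0.926 and -0.889), and Insr (r = -0.802, adjusted p = 0.0230), Irs1 (r = -0.880, adjusted p = 0.0413) and Akt2 (r = -0.873, adjusted p = 0.0308) passed as well.

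The mesothelial and progenitor list (7 of 7 tested) had r = 0.868 with Pck1, 0.820 with Insr, 0.788 with Slc2a4 and 0.754 with Irs1 (adjusted p = 0.0222, 0.0327, 0.0483 and 0.0327; rho 0.867, 0.721, 0.806 and 0.891, adjusted p = 0.0365, 0.112, 0.0601 and 0.0322; permutation tests). Unadjusted permutation p for r was 0.00122, 0.0042, 0.00759 and 0.00418, and for rho 0.00231, 0.0239, 0.00773 and 0.00138. Without Srgn+/+ 1 and Srgn-/- 2 these were 0.686, 0.497, 0.578 and 0.676 (permutation p of 0.0608 or more), with the smallest move for Irs1. With 1 library left out, the relation with Pck1 was lost without Srgn+/+ 1, Srgn-/- 1 or Srgn-/- 2, and that with Irs1 without Srgn+/+ 1 or 3 or Srgn-/- 2 or 5. That with Insr was lost without Srgn+/+ 1 or 3 or Srgn-/- 1, 2 or 5, and that with Slc2a4 passed in only 3 of 10 such fits, lost without Srgn+/+ 1, 2 or 3 or Srgn-/- 1, 2, 3 or 5. Over the 10 libraries as they stand, the lists of T and B cells, epididymis, endothelium and skeletal muscle had no passing relation with any of the 10 genes. With each genotype's mean removed, the endothelial list passed with Akt2 (r = 0.852, adjusted p = 0.0230), Slc2a4 (r = 0.817, adjusted p = 0.0464) and Pck1 (r = 0.802, adjusted p = 0.0464, permutation tests), where r had been 0.586, 0.655 and 0.601. Without Srgn+/+ 4 it passed with Slc2a4 (adjusted p = 0.0358) and Hk2 (adjusted p = 0.0063, permutation tests). All lists and genes share the libraries' scaling and total, so that RNA of one cell type lowers the share of another; the part of cell composition in these relations was not tested. Between the genotypes, macrophage markers had lower estimates in Srgn-/- fat for 11 of 11 tested genes, none past the threshold, with summed levels of 1720 to 6491 CPM in Srgn+/+ and 1848 to 3642 CPM in Srgn-/- libraries. Adipocyte markers had lower estimates for 9 of 12, none past the threshold, and summed to 32695 to 49435 and 32264 to 39761 CPM. T and B cell markers had lower estimates for 9 of 9, none past the threshold, and their sums did not overlap, at 34.7 to 65.2 CPM in Srgn+/+ and 21.6 to 33.7 CPM in Srgn-/- libraries. Gene by gene, CPM ranges did not overlap for 2 of the 9, against 2.78% of all tested genes. An unadjusted edgeR p under 0.05 was seen for 3 of 11 macrophage, 0 of 12 adipocyte and 6 of 9 T and B cell markers. The share over all tested genes was 12.8%. Endothelial markers, and the muscle markers that could be tested, ran higher in Srgn-/- fat. Endothelial markers had higher estimates for 5 of 6, 3 of them with an unadjusted p under 0.05 (median log2 0.33), and summed to 556 to 739 CPM in Srgn+/+ and 614 to 852 CPM in Srgn-/- libraries. Of 7 skeletal muscle markers only 3 were tested, all with higher estimates, 2 of them with an unadjusted p under 0.05 in edgeR (median log2 0.77). Those 2 were Acta1 (means 18.2 and 31.2 CPM), the bulk of the sum, and Mb (3 to 24 reads a library). Among the markers too low to test, Tnnt3 (1.01 and 0.78 CPM) and Myh4 (0.32 and 0.12 CPM) had lower means in Srgn-/- fat. Ckm and Ryr1 had at most 1 read a library. The 7 markers summed to 14.1 to 29.9 CPM in Srgn+/+ and 20.6 to 56.9 CPM in Srgn-/- libraries. No gene of either list passed after adjustment in edgeR, and the part of muscle RNA in the values of Slc2a4 and Hk2 was not tested. The part of T and B cell RNA in the genotype values of leukocyte-expressed pathway genes such as Pik3cd was not tested.

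**Figure D5:**
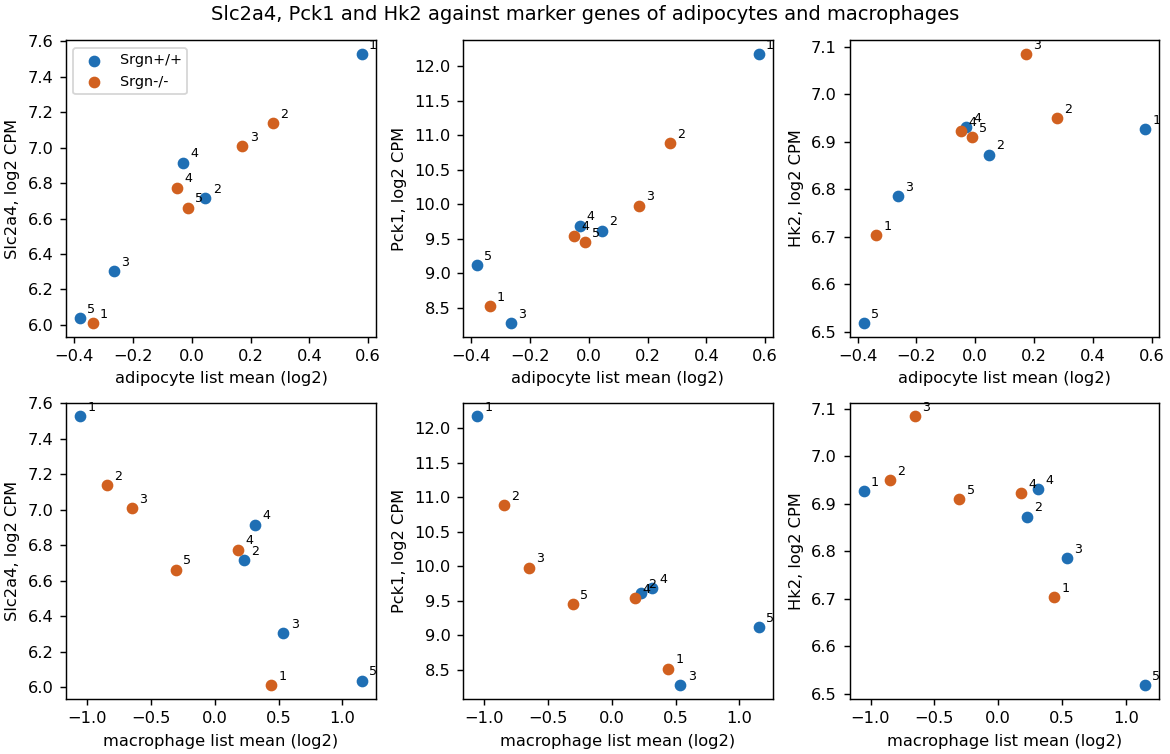
Log2 CPM of Slc2a4, Pck1 and Hk2 against the list mean of adipocyte markers (top) and macrophage markers (bottom); each point is a library, coloured by genotype and labelled with its number. Slc2a4 and Pck1 climb with adipocyte markers (r = 0.968 and 0.943) and decline with macrophage markers (r = -0.872 and -0.813). With each genotype's mean removed, r with macrophage markers was -0.926 and -0.889.

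The genes whose pattern over the 10 libraries was most like each of the 10 were taken from 8518 other tested genes with a mean of at least 10 CPM, as a description of the highest Pearson r. For Slc2a4 these were Gys1 (r = 0.982), which encodes the glycogen synthase of muscle and fat, Usp35 (0.972) and Sh3pxd2a (0.967). All 3 kept r of 0.935 or more without Srgn+/+ 1 and Srgn-/- 1. For Pck1 they were Fdft1 (0.983), the first committed enzyme of sterol synthesis, Pygb (0.978), a glycogen phosphorylase, and Bckdha (0.978), a subunit of the enzyme that oxidizes branched-chain keto acids, all with r of 0.931 or more without Srgn+/+ 1 and Srgn-/- 2. For Tbc1d4 they were Mlycd (0.956), the malonyl-CoA decarboxylase, Suclg1 (0.937), of the citric acid cycle, and Rbp7 (0.917). None of these 9 genes passed between the genotypes (edgeR adjusted p of 0.684 or more).

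Irs1 was most like Kmt2e (0.960), Crls1 (0.959) and Fbxo45 (0.938), but r fell to 0.700, 0.628 and 0.732 without Srgn+/+ 1 and Srgn-/- 4. Pik3r1 was most like Aqr (0.961), Dpyd (0.960) and N4bp2l2 (0.950), and Akt2 like Tbc1d16 (0.931) and Pgm2 (0.924). Insr was most like Gstm1 (0.918), Mapkbp1 (0.917) and Slpi (0.914). Hk2 was most like Slc24a3 (0.939), Uck2 (0.922) and Car1 (0.919), Irs2 like Fhit (0.887), Prdm2 (0.869) and Swi5 (0.861), and Foxo1 like Osgepl1 (0.930), Osbpl11 (0.929) and Ppp1r3c (0.914). With 10 libraries and this many genes, some high values of r arise for any gene, and the lists share only the libraries.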

How the data were processed

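RNA was amplified with an Ion AmpliSeq mouse transcriptome kit, at 1 amplicon per gene, and read on an Ion S5 XL, per the labels' protocols; the submitters' processing notes name build mm9. The aligner and counter used were not given in the sources used here. Raw counts and, in a second table, RPM values were deposited by the authors; the RPM values equal the counts scaled by the column total (largest difference 0.00059). Analysis used R 4.3.3. Genes were kept by filterByExpr (minimum count 10, total 15), scaled by TMM and tested with edgeR 4.0.16 (quasi-likelihood, robust, two-sided), with Benjamini-Hochberg adjustment over 12719 genes and a threshold of 0.05. Marker lists and relations used log2 CPM (prior count 2) with 100000 resamples; ratios added 0.5 to each count and used all 252 splits. AmpliSeq reads carry no molecular identifiers. On simulated counts for this comparison (12796 genes tested), 10.6% of 1.5-fold, 58.7% of 2-fold and 88.7% of 4-fold changes were recovered, with 4 false calls. The changed genes were drawn at random, and rates for genes as widely spread as Irs1, Slc2a4 and Pck1 were not tested. Alternatives were RLE and upper-quartile factors, no filter, DESeq2 1.42.0, limma 3.58.1 (voom with quality weights, and trend on log2 of the deposited RPM plus 1), and leaving out each library. The members and lists were chosen with earlier results of these data known. Named pathway genes are the 3 with the smallest p in each list, and closest genes the 3 with the highest r; some of these are not reported here.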

Additional observations from a re-analysis of the deposited data

Results flagged for a closer look

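Within each genotype's 5 libraries, a value was singled out where its gap to the nearest library was a large share of the range (Dixon's criterion at 95%). Of 100 groups checked, 10 were, where chance alone singles out about 1 in 20 of independent groups of normally spread values. The groups here share libraries and genes, and CPM was not put on a log scale, so the count is not read as an excess over chance. Srgn+/+ 1 was set apart for Irs1 (88.2 CPM, others 27.2 to 29.8), Pck1 (4633 CPM, others 309 to 823) and Foxo1 (82.8 CPM, others 56.2 to 61.1). The log2 ratio of Insr to Igf1r was 0.19 in Srgn-/- 3 and 1.198 to 1.58 in the other Srgn-/- libraries. Epididymis and sperm markers summed to 867 CPM in Srgn+/+ 4 and 4627 CPM in Srgn-/- 3. Hk1 had 37.1 CPM in Srgn+/+ 4 (others 25.6 to 28.4). In Srgn-/- 1, Mdh1 was low at 304 CPM (others 384 to 411) and Pik3cd high at 33.3 CPM (others 14.8 to 19.4). Pdk4 had 188 CPM in Srgn-/- 4 (others 35.1 to 71.4).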

How the results depend on the processing

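None of the 10 genes and none of the 113 pathway genes passed under any of 17 alternatives. Over all genes, DESeq2 called 118 higher and 108 lower, limma-voom 2 and 8, and edgeR without the filter 3 lower. Leaving out 1 library gave 1 to 2 lower. The signs of small estimates were not stable. Insr turned to 0.0063 with upper-quartile factors, 0.021 in limma-trend and 0.025 without the 3 epididymis-rich libraries (an alternative chosen after seeing the data). Irs2 turned to 0.040 in that fit, Akt2 to 0.0018 in limma-voom, Slc2a4 to 0.10 in limma-voom and 0.063 in limma-trend, and Pck1 to 0.23 in limma-voom. Leaving out 1 library gave log2 fold changes of -0.084 to 0.018 for Insr, -0.016 to 0.17 for Pik3r1, -0.18 to 0.053 for Akt2, -0.17 to 0.23 for Slc2a4, -0.0066 to 0.13 for Tbc1d4, -1.01 to 0.61 for Pck1 and -0.00057 to 0.22 for Foxo1. Log2 ratio differences ran from -0.34 to 0.0068 for Insr to Igf1r, -0.43 to 0.022 for Irs1 to Irs2, -0.010 to 0.17 for Pik3r1 to Pik3r2, -0.062 to 0.26 for Akt2 to Akt1, -0.27 to 0.11 for Tbc1d4 to Tbc1d1 and -0.38 to 0.61 for Pck1 to Pck2. Without the epididymis-rich libraries they were 0.098 for Insr to Igf1r and -0.016 for Pck1 to Pck2. Passing pairs numbered 12 on the authors' values, 3 to 11 with 1 library left out and 0 without the epididymis-rich libraries. Passing marker relations with negative r numbered 5 on the authors' values and 5 with genotype means subtracted, and 0 to 4 with 1 library left out. Those with positive r numbered 2 to 10 with 1 library left out and 5 without the epididymis-rich libraries. The cause of these changes was not tested. No paired analysis was possible because the labels give no shared numbers between genotypes. Depth was ample for the 10 genes, each with at least 143 reads in every library. With 5 animals a genotype, the 95% intervals in the report give the precision.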
